A study of Mus musculus with 16 samples.

Results

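The 37 genes described here encode proteins of DNA replication and S phase, the stage of the cell cycle in which the genome is copied. They were taken as a list of gene symbols from an expression table of 20601 genes, and all 37 were present in it. The table came from RNA-seq of polyadenylated RNA from mouse liver tumors and nontumor liver tissue. Tumors had been started by hydrodynamic injection of plasmids that carry the oncogenes N-Ras and c-Myc, both human, at 19 and 1 µg per mouse. With them went 2 µg of a plasmid for Sleeping Beauty, the transposase that inserts such genes into liver cell DNA. From week 4 after injection one set of mice ate a ketogenic diet (KD), a food with 10.4% protein, 0.1% carbohydrate and the remaining 89.5% from fat, for 4 weeks, and the other set stayed on a normal diet (ND). Tissue was taken at week 8 from 8 mice, which gave 4 groups of 4 libraries: ND nontumor, ND tumor, KD nontumor and KD tumor. The nontumor samples came from the injected livers, so all 4 groups had received the same plasmids, and uninjected liver was not analysed here. The promoters of the plasmids, the strain, the sex and the age of the mice are not given in the sources used here. Nor do the labels say which tumor and nontumor samples came from 1 mouse, so each sample was taken as a separate replicate, and what the p-values weigh is the scatter of these samples.

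Replication starts from origins on which the MCM helicase (Mcm2 to Mcm7) is loaded in G1 by Cdc6 and Cdt1. Cyclin E, encoded by Ccne1 and Ccne2, and the E2F transcription factors, of which E2f1 is a member, drive the entry into S phase, when Cdc45, the GINS complex and Mcm10 turn the loaded helicase into an active one. DNA polymerases, their sliding clamp (Pcna), the clamp loader (Rfc genes) and the ligase then copy the DNA, with nucleotides made by enzymes such as ribonucleotide reductase and thymidylate synthase. In the adult liver most hepatocytes rest outside the cell cycle, and these genes are known to be induced when the liver regenerates or forms tumors.

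Many S phase genes are known to carry E2F sites in their promoters, so the RefSeq promoter windows (build GRCm38.p6, 300 bases, from 250 before to 50 after each start site) were searched for the letters TTTGGCGC, TTTCCCGC, TTTGCCGC and TTTCGCGC on both strands, with overlapping matches allowed. Of the 37 genes 31 had a window, and 12 of the 31 (38.7%) held at least 1 of these E2F motifs. They were Mcm3, Mcm5, Mcm6, Mcm7, Cdc6, Cdt1, Rfc3, Pola1, Pold1, Lig1, Uhrf1 and Msh6. Among all 27025 genes with such windows 2.61% held one, and among the 14599 of them in the expression table the share was 3.93%. The CCAAT letters bound by NF-Y were in the windows of 18 of the 31 (58.1%), against 41.1% of all genes and 42.0% of those in the expression table. The letters TTTGAA of the CHR element, known from genes of mitosis, were in 3 of the 31 (9.68%), against 20.2% and 15.96%. The windows of Tk1, Ccne1 and Tyms held none of the E2F letters, nor did those of Mcm2, Mcm10 and Pcna. Mcm4, Gins1, Gins2, Rfc2, Pole and Ccne2 were not matched. The stretches below belong to genes that passed a test in the results that follow, and all lie before the RefSeq start site used. By the gene spans of the GENCODE annotation, those of Mcm7, Uhrf1 and Pcna, and nearly all of that of Rfc3, lie inside the gene. The capitals mark the motif on either strand: E2F letters in the first 4, CCAAT or its reverse complement ATTGG in the last 2.
Mcm6, chr1:128359720-128359840, minus strand: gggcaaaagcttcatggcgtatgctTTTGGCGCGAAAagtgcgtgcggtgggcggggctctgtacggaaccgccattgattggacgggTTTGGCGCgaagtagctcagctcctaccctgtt
Mcm7, chr5:138172016-138172073, minus strand: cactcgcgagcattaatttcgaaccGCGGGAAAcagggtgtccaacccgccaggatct
Rfc3, chr5:151651209-151651243, minus strand: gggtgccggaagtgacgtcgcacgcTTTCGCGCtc
Uhrf1, the downstream of 2 start sites, chr17:56304103-56304160, plus strand: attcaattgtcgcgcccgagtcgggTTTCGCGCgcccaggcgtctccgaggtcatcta
Mcm10, chr2:5012792-5012914, minus strand: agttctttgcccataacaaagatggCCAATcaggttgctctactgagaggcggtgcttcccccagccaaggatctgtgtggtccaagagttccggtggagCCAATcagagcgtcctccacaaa
Pcna, chr2:132253238-132253292, minus strand: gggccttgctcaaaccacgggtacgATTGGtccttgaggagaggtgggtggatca
In the Mcm6 stretch the first block of capitals is an E2F motif that overlaps another on the opposite strand. A match shows only that the letters are there.

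Expression was deposited as TPM, a level per gene scaled to gene length and library size. In ND nontumor 4 the listed genes held 7.38% of what a full TPM column adds up to, and in the other libraries 49.96% to 88.4%. TPM was therefore divided by a median-of-ratios factor per library, from 0.128 in ND nontumor 4 to 1.52, and every level below is such a rescaled TPM. Whole reads recovered from the TPM steps gave 3518966 (ND nontumor 4) to 14074042 reads per library, of which 1233 to 7282 fell on the 37 genes. At that depth the low members rest on few reads: Cdc6 had 0 to 18 reads per library and Ccne1 2 to 26 in nontumor liver. Differences are log2 fold changes ± SE from limma on log2(rescaled TPM + 1), n = 4 per group, which understates the change of low genes. A gene passed at a Benjamini-Hochberg adjusted p of under 0.05 over the 13432 genes tested, those with a deposited TPM of at least 1 in at least 4 libraries. Of the 37 genes 33 were tested, and for none of them did the libraries at that minimum all lie in 1 group. Pole reached it in 0 ND nontumor, 3 ND tumor, 1 KD nontumor and 2 KD tumor libraries, so without ND tumor it would not have been tested. Gins2 reached it in just 4 libraries, of which 1 was ND tumor, 1 KD nontumor and 2 KD tumor. In bulk tissue a higher level in each cell cannot be told apart from more cells that express the gene.

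The replication genes were expressed at low to moderate levels in all groups. Summed over the 37 genes, the level was 125 to 137 in ND nontumor, 137 to 166 in ND tumor, 134 to 170 in KD nontumor and 148 to 240 in KD tumor. Mcm10 alone made up a large part of the nontumor sums. Without Mcm10 and Tk1, the members that were lower in tumor, the sums were 91.8 to 104 and 89.6 to 110 in ND and KD nontumor liver, and 130 to 157 and 140 to 222 in the tumors, with no overlap between tissues on either diet. That separation follows in part from leaving out those 2 genes, which were picked after their values were seen. In ND nontumor liver the highest means were those of Mcm10 (21.9 ± 4.87, SD, n = 4), Rfc2 (10.7 ± 0.751), Pcna (9.68 ± 2.16) and Mcm7 (9.48 ± 0.606), and the last 3 of these overlapped in range. In KD tumor the order was led by Pcna (21.5 ± 3.42), Ccne1 (18.9 ± 14.0) and Mcm7 (14.8 ± 3.73). The range of Ccne1 overlapped both of the others, while all Pcna values were above all Mcm7 values.

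The libraries within a group differed. KD tumor 3 held the highest level of all 16 libraries for 12 of the 37 genes, among them Mcm2, Mcm3, Mcm6, Mcm7, Pcna and Ccne1, and ND tumor 1 for 9, among them Mcm5, Tyms, Cdt1, Pold1 and Lig1. KD nontumor 3 was alone at the lowest level for 10 genes, among them Mcm2, Mcm3, Dut and Uhrf1, while its Tk1 was the highest of all libraries. No other library was alone at the lowest level for more than 4 genes. Over all tested genes, KD nontumor 1 and 2 correlated at 0.982 and KD nontumor 3 and 4 at 0.958. Pairs across these KD nontumor sets correlated at 0.913 to 0.944. The cause of this split was not tested.

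**Figure D1:**
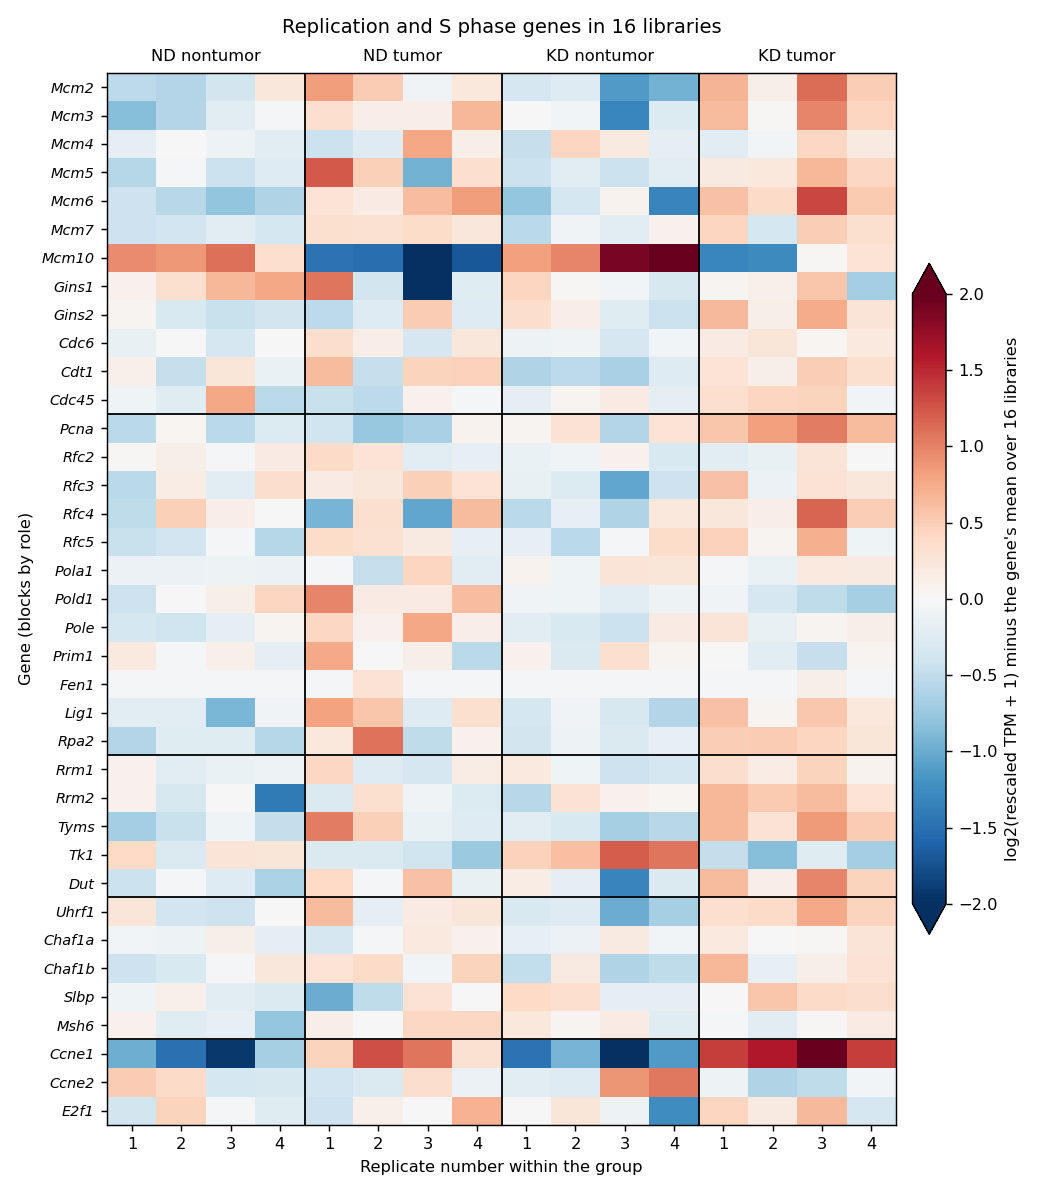
Levels of the 37 genes in the 16 libraries, as log2(rescaled TPM + 1) minus each gene's mean over all libraries, with genes in rows by role and libraries in columns by group. Ccne1 was above its mean in all 8 tumor libraries and below it in all 8 nontumor ones, Mcm10 stood out in nontumor liver, and KD tumor 3 was the highest column for Mcm2, Mcm3, Mcm6 and Mcm7.

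Tumor against nontumor liver asks which of these genes differed between the growths and the liver around them, on each diet. On the normal diet 7 of the 33 tested genes were higher in tumor (21.2%, where 14.5% of all tested genes were higher) and 2 were lower (6.06%, where 14.2% of all tested genes were). The 7 were Ccne1, Mcm6, Mcm7, Lig1, Tyms, Msh6 and Pole, and the 2 were Mcm10 and Tk1. Pole met the minimum for testing only with its ND tumor libraries, so its place in these ND counts rests in part on the filter. The other 24 did not pass. Over the 33 the median log2 fold change was 0.35, with 25 above 0, while the median of all tested genes was -0.00. For 5 of the 33 every tumor library was above every nontumor library (Mcm3, Mcm6, Mcm7, Pole and Ccne1), and for Mcm10 every one was below. That is 15.2% and 3.03%, where 13.8% and 13.7% of all tested genes had such groups. On the normal diet, then, the share of these genes that were higher was not far above the share of all genes.

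On the ketogenic diet 11 of the 33 were higher in tumor (33.3%, against 16.3% of all tested genes) and 2 lower (6.06%, against 16.2%). The 11 were Ccne1, Mcm2, Mcm3, Mcm6, Tyms, Dut, Pcna, Cdt1, Rfc3, Lig1 and Uhrf1, and the 2 were again Mcm10 and Tk1. The other 20 did not pass. The median over the 33 was 0.50, with 26 above 0, against 0.01 for all tested genes. Tumor libraries lay above all nontumor libraries for 12 genes (36.4%, against 15.8% of all) and below them for 2 (6.06%, against 17.3%). Ccne1, Lig1, Mcm6 and Tyms were higher on both diets, which is 4 of the 7 and 4 of the 11. The shares were not tested against each other, and none of the 33 genes passed the test of whether the difference between tissues depended on the diet, given further on.

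**Figure D2:**
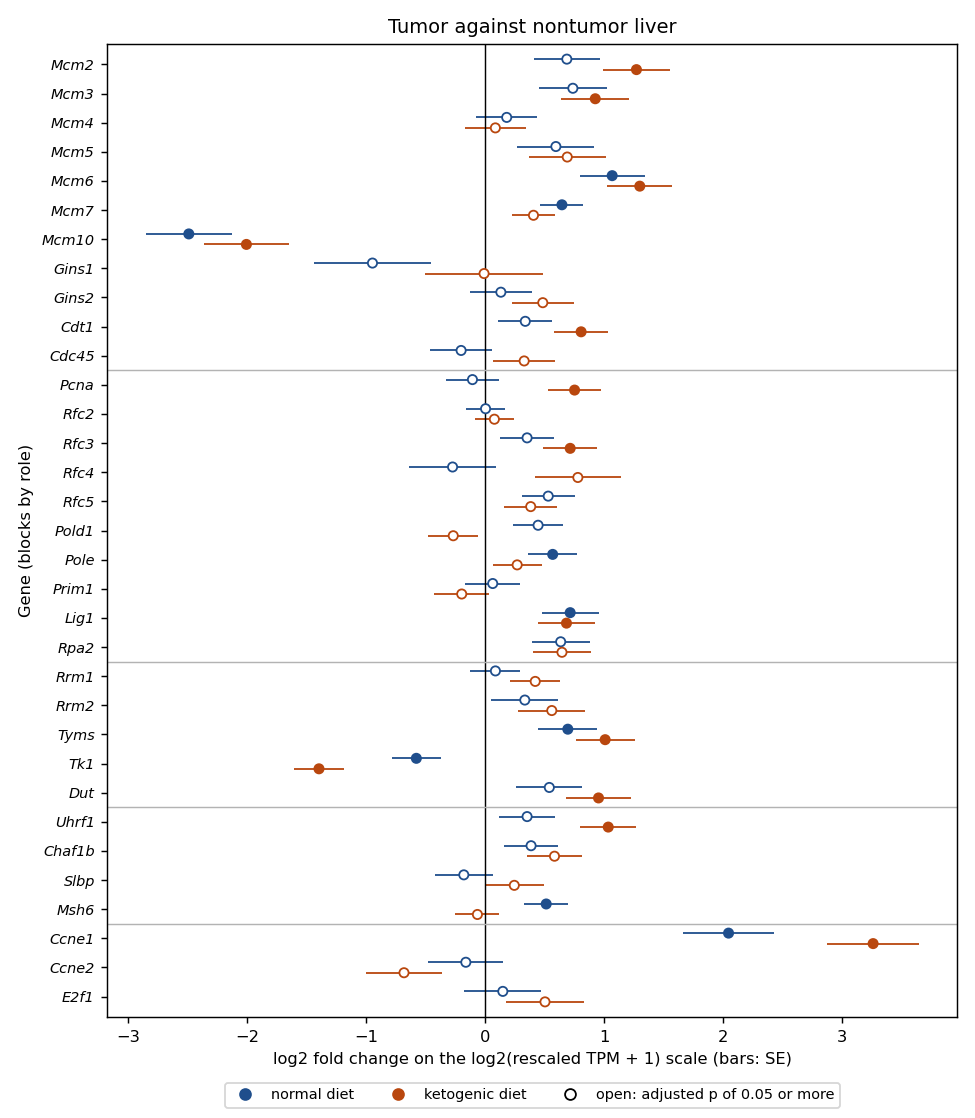
Log2 fold change of tumor over nontumor liver for the 33 tested genes, in rows by role, on the normal diet (blue) and the ketogenic diet (orange), with bars for the SE and filled points for adjusted p under 0.05. Ccne1 lay farthest to the right on both diets (2.04 and 3.26) and Mcm10 farthest to the left (-2.49 and -2.01).

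Some of the genes of the helicase and its loading rose and 1 fell. Among the 11 tested genes of this role Mcm6 and Mcm7 were higher and Mcm10 lower in ND tumor, and Mcm2, Mcm3, Mcm6 and Cdt1 were higher and Mcm10 lower in KD tumor. Mcm6 (chr1:128331590-128359664 in GRCm38), a subunit of the helicase ring, was at 2.09, 1.79, 1.37 and 1.71 in ND nontumor 1 to 4 and at 3.99, 3.60, 5.32 and 6.36 in ND tumor. On the ketogenic diet it was at 1.41, 2.22, 3.29 and 0.645 in nontumor liver and at 5.13, 4.38, 9.36 and 4.87 in tumor. The groups did not overlap on either diet, and KD tumor 3 stood far above the other KD tumors. The change was 1.07 ± 0.27 on ND (adjusted p = 0.00764) and 1.30 ± 0.27 on KD (adjusted p = 0.00195).

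Mcm2, another ring subunit, was at 1.14, 1.26, 0.224 and 0.393 in KD nontumor liver and at 3.33, 1.92, 4.82 and 2.79 in KD tumor, a rise of 1.27 ± 0.28 (adjusted p = 0.00271). On ND it was at 0.874, 0.789, 1.09 and 2.16 in nontumor liver and at 3.83, 2.84, 1.57 and 2.12 in tumor. Here the groups overlapped, and the change of 0.69 ± 0.28 did not pass (adjusted p = 0.0768).

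Mcm7, the most abundant of Mcm2 to Mcm7 in every group by mean, was at 8.99, 9.22, 10.4 and 9.35 in ND nontumor liver and at 15.5, 15.4, 16.1 and 14.6 in ND tumor, a rise of 0.64 ± 0.18 (adjusted p = 0.0135). In KD it was at 8.11, 11.7, 10.4 and 13.1 in nontumor liver and at 16.8, 9.39, 17.6 and 15.6 in tumor. The ND groups were each within a narrow range and well apart, whereas KD tumor 2 lay among the nontumor libraries, and the KD change of 0.41 ± 0.18 did not pass (adjusted p = 0.0965). Mcm7 shares 7.25% of its exon bases with Ap4m1 and 1.45% with Cops6, both on the opposite strand. On its own strand it shares 1.90% with Mir25 and 1.99% with Mir93.

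Cdt1, which loads the helicase, was at 1.56, 1.70, 1.49 and 2.27 in KD nontumor liver and at 3.69, 3.20, 4.50 and 3.84 in KD tumor (0.81 ± 0.23, adjusted p = 0.0123). Its ND levels of 3.17, 1.82, 3.60 and 2.55 in nontumor liver and 5.05, 1.83, 4.32 and 4.36 in tumor overlapped (0.34 ± 0.23, adjusted p = 0.287). Mcm3, a further ring subunit, rose in KD tumor (0.92 ± 0.29, adjusted p = 0.0211), and in ND tumor its change was 0.74 ± 0.29 (adjusted p = 0.0647) with groups that did not overlap. Mcm4 and Mcm5, the remaining ring subunits, did not pass on either diet, with changes of 0.18 and 0.09 for Mcm4 and 0.59 and 0.69 for Mcm5 on ND and KD. Cdc45 and the GINS subunits Gins1 and Gins2, which join the helicase when origins fire, did not pass either. Gins1 was uneven in ND tumor, from 0 in replicate 3 to 10.2 in replicate 1. Gins2 shares 67.3% of its exon bases with Gse1 on the opposite strand and stayed at or below 1.39. Cdc6, which recruits Cdt1 to origins, did not reach the minimum for testing and lay between 0 and 0.606.

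Mcm10 (chr2:4989714-5012791), which helps to activate the helicase and links it to the primase polymerase, went the other way from the ring subunits. It was at 23.6, 22.3, 26.6 and 15.1 in ND nontumor liver and at 3.60, 3.52, 2.11 and 2.94 in ND tumor. On KD it was at 21.6, 24.2, 46.8 and 52.0 in nontumor liver and at 4.18, 4.28, 12.01 and 14.6 in tumor. All nontumor libraries were above all tumor libraries, across both diets. The fall was -2.49 ± 0.36 on ND (adjusted p = 9.1e-05) and -2.01 ± 0.36 on KD (adjusted p = 0.000623). These levels rest on 247 to 1618 recovered reads per nontumor library and 91 to 713 per tumor library, and Mcm10 shares no annotated exon base with another gene. In nontumor liver Mcm10 was thus present at more than the level of any of Mcm2 to Mcm7 in every library, and in ND tumor Mcm7 was above it in every library. Where along the gene the reads lay was not tested, since the table holds 1 value per gene.

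At the fork, Lig1 and Pole were higher in ND tumor and Lig1, Pcna and Rfc3 in KD tumor, of 10 tested genes of this role. Lig1, the ligase that joins Okazaki fragments, was at 1.86, 1.85, 0.771 and 2.20 in ND nontumor liver and at 4.85, 3.89, 1.80 and 3.17 in ND tumor (0.71 ± 0.24, adjusted p = 0.035). On KD it went from 1.61, 2.19, 1.67 and 1.22 to 4.00, 2.48, 3.86 and 2.87 (0.68 ± 0.24, adjusted p = 0.0389). The groups did not overlap on KD, while on ND tumor 3 lay within the nontumor range. Pole, the catalytic subunit of the leading strand polymerase, was low, at 0.495, 0.452, 0.682 and 0.969 in ND nontumor liver and 1.53, 1.03, 2.24 and 1.08 in ND tumor (0.57 ± 0.21, adjusted p = 0.0486). Its KD levels of 0.629, 0.544, 0.419 and 1.13 in nontumor liver and 1.29, 0.714, 0.975 and 1.06 in tumor overlapped (0.27 ± 0.21, adjusted p = 0.334). Pole met the minimum for testing only with its ND tumor libraries, which favors a rise in ND tumor.

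Pcna (chr2:132249162-132253314), the sliding clamp, was at 12.7, 15.2, 7.78 and 14.9 in KD nontumor liver and at 18.3, 22.4, 25.97 and 19.4 in KD tumor, a rise of 0.75 ± 0.22 (adjusted p = 0.0176). On ND it was at 8.06, 12.6, 8.06 and 9.99 in nontumor liver and at 8.98, 6.84, 7.44 and 12.8 in tumor. The ND groups lay in the same range (-0.11 ± 0.22, adjusted p = 0.758). Among the subunits of the clamp loader Rfc3 rose in KD tumor (0.71 ± 0.23, adjusted p = 0.0243), and Rfc2, Rfc4 and Rfc5 did not pass on either diet. Rfc2, the most abundant of them, changed by 0.00 ± 0.16 on ND and 0.08 ± 0.16 on KD. Rpa2, part of the complex that coats single-stranded DNA, changed by 0.63 ± 0.24 and 0.65 ± 0.24 (adjusted p = 0.0624 and 0.0533), with KD groups that did not overlap. Prim1, the primase that lays down RNA primers, changed by 0.06 ± 0.23 on ND and -0.20 ± 0.23 on KD. Pold1 (chr7:44532746-44548849), the catalytic subunit of the lagging strand polymerase, changed by 0.44 ± 0.21 on ND (adjusted p = 0.124) and -0.27 ± 0.21 on KD (adjusted p = 0.342). Pola1, the catalytic subunit of the polymerase that starts each new strand, was not tested and lay between 0.157 and 1.16.

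Fen1, the flap endonuclease of Okazaki fragment maturation, was listed at 0 in 14 libraries and rested on 3 reads in ND tumor 2 and 2 reads in KD tumor 3. Of its exon bases 78.8% are shared with Gm10143 and 5.37% with Tmem258, both on the opposite strand. Whether reads in shared bases were counted for Fen1 was not tested, so its 0 is no measure of its expression. In all, 23 of the 37 genes share no exon base with another annotated gene, and 14 do.

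Of the enzymes that supply nucleotides, Tyms rose on both diets and Dut in KD tumor, and Tk1 fell on both diets. Tyms, thymidylate synthase, makes dTMP anew. It was at 1.36, 1.77, 2.57 and 1.70 in ND nontumor liver and at 6.67, 4.22, 2.43 and 2.14 in ND tumor (0.69 ± 0.25, adjusted p = 0.0463). On KD it went from 2.23, 2.07, 1.39 and 1.57 to 4.97, 3.58, 5.77 and 4.37 (1.01 ± 0.25, adjusted p = 0.00569). The KD groups were apart, and on ND tumors 3 and 4 lay within the nontumor range.

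Tk1 (chr11:117815526-117826092), the thymidine kinase that salvages thymidine, was at 9.997, 5.78, 8.90 and 8.78 in ND nontumor liver and at 5.82, 5.82, 5.29 and 3.96 in ND tumor (-0.58 ± 0.21, adjusted p = 0.046). On KD it went from 10.5, 11.6, 18.1 and 16.5 to 4.996, 3.60, 6.03 and 4.19 (-1.40 ± 0.21, adjusted p = 0.000143). The KD groups were far apart, and the ND groups overlapped through ND nontumor 2 alone. The opposite-strand gene Afmid, which shares 1.60% of Tk1's exon bases, changed by -0.50 ± 0.21 on ND (adjusted p = 0.0808) and fell on KD (-2.07 ± 0.21, adjusted p = 4.2e-06). Its part in the Tk1 values was not tested. Dut, which removes dUTP, rose in KD tumor (0.95 ± 0.28, adjusted p = 0.015) and changed by 0.54 ± 0.28 on ND (adjusted p = 0.16). The subunits of ribonucleotide reductase did not pass on either diet, with changes of 0.09 and 0.42 for Rrm1 and 0.33 and 0.56 for Rrm2 on ND and KD.

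Among the 4 tested genes of chromatin copying, histone mRNA and mismatch repair, Msh6 was higher in ND tumor and Uhrf1 in KD tumor. Uhrf1, which guides DNA methylation to new DNA, was at 0.609, 0.660, 0 and 0.257 in KD nontumor liver and at 1.52, 1.59, 2.37 and 1.69 in KD tumor (1.03 ± 0.23, adjusted p = 0.00325). Its ND levels of 1.34, 0.515, 0.483 and 0.994 in nontumor liver and 2.08, 0.743, 1.22 and 1.34 in tumor overlapped (0.35 ± 0.23, adjusted p = 0.281). Msh6, a mismatch recognition protein, rose in ND tumor (0.51 ± 0.18, adjusted p = 0.0473) and changed by -0.07 ± 0.18 in KD tumor (adjusted p = 0.808). Chaf1b, part of the chromatin assembly factor, changed by 0.39 ± 0.23 and 0.58 ± 0.23 (adjusted p = 0.224 and 0.0614), and Slbp, which binds histone mRNA, by -0.18 ± 0.25 and 0.24 ± 0.25. Chaf1a, the other assembly subunit listed, was not tested and stayed at or below 0.505. It shares 52.5% of its exon bases with Ubxn6 on the opposite strand, and whether reads there were counted for Chaf1a was not tested.

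Ccne1 (cyclin E1, chr7:38097984-38107534), which drives cells from G1 into S phase, had the largest rise of the 33 genes on both diets. It was at 1.38, 0.660, 0.232 and 1.94 in ND nontumor liver and at 5.40, 10.4, 8.86 and 4.78 in ND tumor (2.04 ± 0.38, adjusted p = 0.000857). On KD it went from 0.688, 1.45, 0.167 and 1.13 to 11.2, 13.2, 39.8 and 11.2 (3.26 ± 0.38, adjusted p = 1.9e-05). The tissues did not overlap across both diets, and KD tumor 3 stood alone far above the other tumors. Ccne2, the paralog, changed by -0.16 ± 0.32 on ND and -0.68 ± 0.32 on KD (adjusted p = 0.737 and 0.109), and shares 17.4% of its exon bases with Ints8 on the opposite strand. E2f1 changed by 0.15 ± 0.32 and 0.50 ± 0.32 (adjusted p = 0.77 and 0.249).

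**Figure D3:**
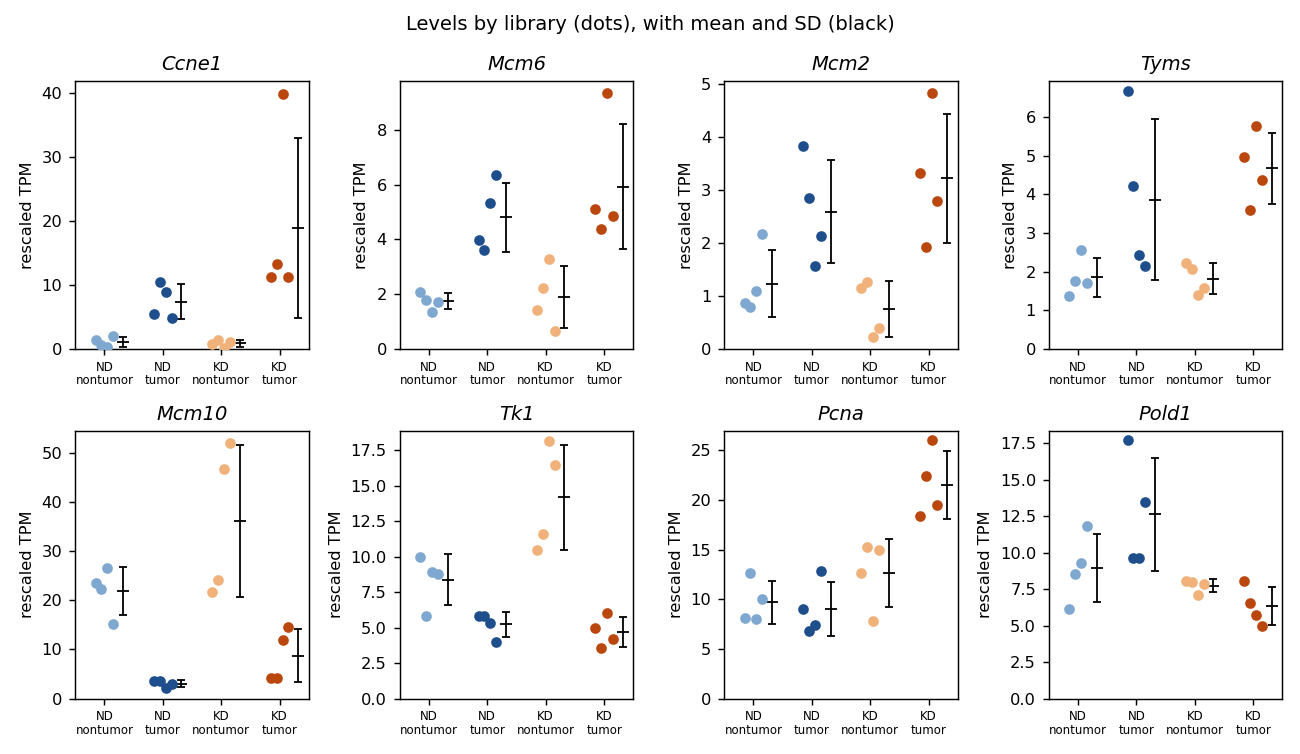
Rescaled TPM of 8 of the genes in each library (dots, by group), with the mean and SD of each group in black. Ccne1, Mcm6 and Tyms reached higher levels in tumor, Mcm10 and Tk1 in nontumor liver, and Pcna was highest in KD tumor (18.3 to 25.97). Pold1 had its lowest mean in KD tumor (5.001 to 8.03), with a range that overlapped both nontumor groups.

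The counts turned on the scaling of the libraries. On deposited TPM the median of all tested genes was 0.42 on ND and -0.26 on KD, and only 2 of these genes were higher and 1 lower on ND, and 2 and 2 on KD. With every library's listed genes brought to 1 common sum, 13 were higher and 1 lower on ND, and 5 and 2 on KD, where the medians of all tested genes were 0.21 and -0.26. Ccne1 and Mcm10 passed on both diets, and Mcm2 and Tk1 on KD, in every alternative run. With single libraries left out the number that passed ranged from 5 to 9 on ND, with 5 each without ND nontumor 2, ND nontumor 3, ND tumor 1, KD tumor 1 or KD tumor 4. On KD it ranged from 8 to 15, with 8 each without KD nontumor 3 or KD tumor 3. On ND, Ccne1, Mcm6, Mcm7 and Mcm10 passed with each library left out, and Tyms, Tk1, Pole, Lig1 and Msh6 did not (highest adjusted p from 0.12 to 0.156). On KD, Mcm3, Pcna, Dut, Rfc3 and Lig1 were the ones that did not (highest adjusted p from 0.0545 to 0.11).

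Read against the promoter letters, 4 of the 10 tested genes with E2F letters were higher in ND tumor (median 0.55), against 2 of the 17 tested genes whose windows held none (median 0.15). On KD it was 6 of 10 (median 0.70) against 5 of 17 (median 0.56). Both genes that fell, Mcm10 and Tk1, were among the 17. Of all tested genes, with or without the letters, 14.5% were higher on ND and 16.3% on KD. Pole, which was higher in ND tumor, had no window and is in neither set. The share among other genes with E2F letters was not examined. These counts rest on few genes, and the sets were not tested against each other, so no link to the letters is drawn from them.

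The ketogenic against the normal diet asks whether the food changed these genes within a tissue. In tumor 3 of the 33 passed (9.09%, where 15.7% of all tested genes did): Pcna and Mcm10 were higher on KD, and Pold1 was lower. The share of the replication genes rests on 3 genes and was not tested against that of all genes. The scale used also understates the change of low members. Pcna was at 8.98, 6.84, 7.44 and 12.8 in ND tumor and at 18.3, 22.4, 25.97 and 19.4 in KD tumor, with no overlap (1.19 ± 0.22, adjusted p = 0.00399). The same 4 KD tumor libraries enter its comparison with nontumor liver above. Pcna and Tyms have annotated pseudogenes, and the split of reads between a gene and such copies is uncertain.

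Pold1 was at 17.7, 9.65, 9.63 and 13.5 in ND tumor and at 8.03, 6.56, 5.71 and 5.001 in KD tumor, again with no overlap (-0.87 ± 0.21, adjusted p = 0.0131). Its nontumor levels of 6.11, 8.54, 9.31 and 11.8 on ND and 8.04, 7.95, 7.10 and 7.83 on KD overlapped with those of the tumors. Mcm10 was at 3.60, 3.52, 2.11 and 2.94 in ND tumor and, as given above, at 4.18, 4.28, 12.01 and 14.6 in KD tumor (1.11 ± 0.36, adjusted p = 0.0463). The groups did not overlap, but KD tumors 1 and 2 lay just above the ND range. The adjusted p was above the threshold with 9 of the 16 libraries left out, up to 0.14 without KD tumor 4. In KD nontumor liver, too, Mcm10 was lower in libraries 1 and 2 (21.6 and 24.2) than in 3 and 4 (46.8 and 52.0). The cause of these steps was not tested. Ccne1 was higher in each KD tumor than in any ND tumor, yet the difference of 1.09 ± 0.38 did not pass (adjusted p = 0.062). In all, 3 of the 33 lay higher on KD without overlap (9.09%) and 1 lower (3.03%). Among all 13432 tested genes 1657 and 1417 did, so such groups were not particular to these genes. Of the 33 genes 22 were above 0, with a median of 0.20 against 0.03 for all tested genes. With that common sum both medians shifted down together, to -0.18 and -0.33.

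Markers of other cells differed between the diets in tumor as well. Of the 6 endothelial markers Clec4g (2.41) and Stab2 (1.16) were higher on KD, and Pecam1 (-1.74) and Cdh5 (-1.28) were lower. Of the 8 macrophage and Kupffer cell markers Cd5l (1.73) and Clec4f (0.90) were higher. Single markers passed in 4 further lists: S100a8 of neutrophils (1.87) and Jchain of plasma cells (1.19) were higher, and Sox9 of cholangiocytes (-1.96) and Lck of T cells (-1.48) were lower. The summed levels of the endothelial list, 60.9 to 104 in ND tumor and 47.1 to 84.8 in KD tumor, and of the macrophage list, 89.9 to 158 and 101 to 169, overlapped between the diets. The tested markers of hepatocytes, stellate cells and fibroblasts, red cell precursors and liver tumors did not pass (lowest adjusted p = 0.0731). The part of these markers in the Pcna, Mcm10 and Pold1 results was not tested.

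**Figure D4:**
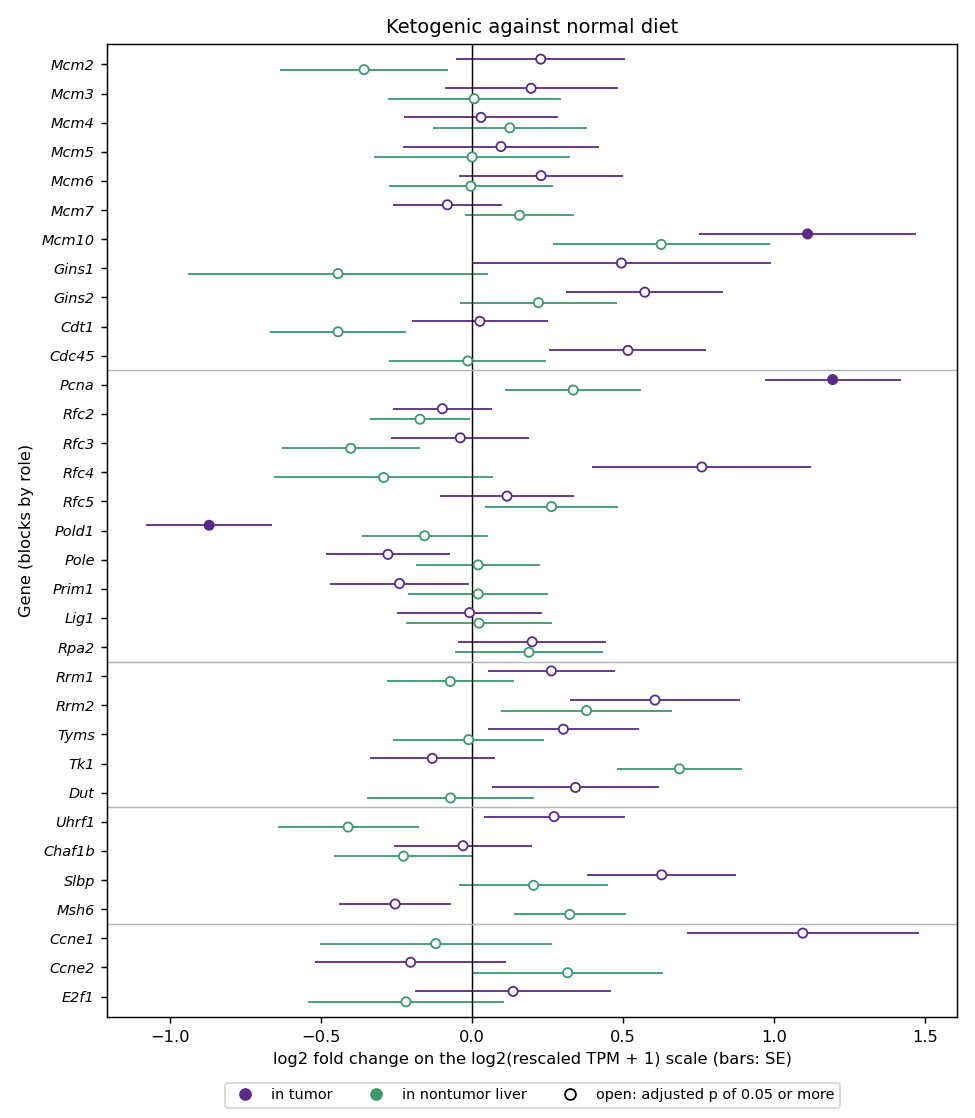
Log2 fold change of the ketogenic over the normal diet for the 33 tested genes, in rows by role, in tumor (purple) and nontumor liver (green), with bars for the SE and filled points for adjusted p under 0.05. Only Pcna (1.19), Mcm10 (1.11) and Pold1 (-0.87) are filled, all in tumor.

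In nontumor liver 0 of the 33 passed with limma (where 0.0521% of all tested genes, 7, did), 1 had an unadjusted p under 0.05, and 0 passed with voom on the recovered reads. That gene was Tk1, at 9.997, 5.78, 8.90 and 8.78 on ND and 10.5, 11.6, 18.1 and 16.5 on KD. The groups did not overlap (0.69 ± 0.21, adjusted p = 0.261). Tk1 was the only 1 of the 33 with such groups (3.03%), while 428 of all 13432 tested genes were higher on KD without overlap. The median over the 33 was -0.00, against 0.01 for all tested genes.

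Whether the diet acted differently on these genes in tumor and in nontumor liver was tested as an interaction, the diet difference in tumor minus that in nontumor liver. With limma 0 of the 33 passed it (where 0.618% of all tested genes did), 5 had an unadjusted p under 0.05, and 0 passed with voom. The 5 were Pcna (0.86 ± 0.32, adjusted p = 0.181), Tk1 (-0.82 ± 0.29, adjusted p = 0.171), Pold1 (-0.71 ± 0.30, adjusted p = 0.224), Ccne1 (1.21 ± 0.54, adjusted p = 0.254) and Msh6 (-0.58 ± 0.26, adjusted p = 0.259). The same term measures whether the difference between tissues depended on the diet. The genes that passed on only 1 diet, such as Mcm2 or Mcm7, were therefore not shown to differ between diets.

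The rest of the pathway was read from a list of 89 other replication and G1/S genes, of which 81 were tested. In ND tumor 14 were higher and 6 lower (17.3% and 7.41%), and in KD tumor 18 and 4 (22.2% and 4.94%), against 14.5% and 14.2%, and 16.3% and 16.2%, of all tested genes. Inhibitors of cyclin-dependent kinases went in both directions. Cdkn1b (p27) fell on both diets, by -0.75 ± 0.24 on ND and -0.67 ± 0.24 on KD (adjusted p = 0.0277 and 0.0413), and Cdkn1c did not pass (adjusted p = 1 and 0.282). Cdkn1a and Cdkn2c rose on both, and the largest rises were those of Cdkn2b (p15), by 4.50 ± 0.49 on ND and 3.99 ± 0.49 on KD (adjusted p = 7.1e-06 and 3e-05), and Cdkn2a, by 3.62 ± 0.57 and 4.34 ± 0.57 (adjusted p = 0.000196 and 4.8e-05). The G1 kinase Cdk6 rose on both diets too, by 1.00 ± 0.15 and 0.95 ± 0.15, and cyclin D1 (Ccnd1) by 1.04 ± 0.26 and 1.89 ± 0.26. Pold4, a small subunit of the lagging strand polymerase, rose by 2.92 ± 0.31 and 3.34 ± 0.31 (adjusted p = 5.7e-06 and 2.3e-06).

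E2f8, an E2F repressor, fell on both diets, by -1.93 ± 0.29 on ND and -2.10 ± 0.29 on KD (adjusted p = 0.000146 and 8.7e-05). Like Mcm10 it was higher in each nontumor library, at 5.01 to 12.8, than in any tumor, at 0 to 2.68. Top1 (-0.76 ± 0.17), Recql4 (-0.89 ± 0.25) and Rnaseh2c (-1.14 ± 0.35) were lower in ND tumor. In KD tumor Msh3 (-0.84 ± 0.22) and Dna2 (-0.77 ± 0.26) were lower. None of these genes passed on both diets. Between diets in tumor 4 of the 81 were higher on KD (4.94%, against 7.21% of all tested genes) and 2 lower (2.47%, against 8.49%). These shares rest on few genes and were not tested against those of all genes. Shmt1 (0.94 ± 0.25) and Umps (0.80 ± 0.22), enzymes of one-carbon and pyrimidine synthesis, were higher, as were Rpa1 (1.02 ± 0.30) and Ccnd1 (0.84 ± 0.26). Timeless (-0.92 ± 0.20), a fork protection protein, and Pold3 (-0.85 ± 0.18), another subunit of the polymerase of Pold1, were lower.

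A list of 20 mitosis genes, read for comparison, had 14 of 19 tested genes higher in ND tumor (73.7%, median 1.12) and 10 of 19 in KD tumor (52.6%, median 0.97). The shares of all tested genes that were higher were 14.5% on ND and 16.3% on KD. Cdk1, Ube2c, Top2a and Mki67, which had the lowest adjusted p on KD, were higher on both diets. Among the KD nontumor libraries each of these genes was highest in KD nontumor 2, with Ube2c at 8.77 against 0.599 to 3.35. The part of that library in the KD count was not tested. The mitosis medians stand beside 0.35 and 0.50 for the replication genes, and the lists were not tested against each other.

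Markers of the cells in the samples moved as well. The hepatocyte markers (6 genes, among them Alb) summed to 46440 to 86090 in ND nontumor liver, 63180 to 121400 in ND tumor, 28160 to 83380 in KD nontumor liver and 120800 to 171300 in KD tumor, so all samples held hepatocyte RNA, and 3 of 6 rose in KD tumor. The macrophage and Kupffer cell markers summed to 278 to 352 and 89.9 to 158 in ND nontumor and tumor, and 149 to 239 and 101 to 169 on KD, with 5 of 8 lower in ND tumor and 3 of 8 lower and 1 higher in KD tumor. The T and NK cell markers summed to 9.61 to 16.4 and 14.3 to 52.2 on ND, and 6.68 to 14.4 and 12.5 to 33.5 on KD, with 4 of 7 tested higher in ND tumor and 1 of 7 in KD tumor. Markers of other cells moved in both directions within a list: on ND the sinusoidal endothelial genes Clec4g and Stab2 were lower in tumor and Pecam1, Cdh5 and Kdr higher, and Lrat and Dcn of stellate cells and fibroblasts were lower and Col1a1 higher. The red cell precursor markers summed to 824.5 to 4987 in ND nontumor liver, 181 to 1086 in ND tumor, 415.8 to 1617 in KD nontumor liver and 340.4 to 2614 in KD tumor, with 2 of 4 tested lower in ND tumor and 0 of 4 passed on KD. No marker of these lists was at 0 in all libraries. The liver tumor markers Afp, Gpc3 and H19 rose on both diets, and the fourth, Igf2bp3, stayed under 1 in all libraries. H19 was at 446 in KD nontumor 2 and 88.5 in ND nontumor 4, against 1.05 to 41.8 in the other nontumor libraries. Gpc3 was at 4.237 and 1.923 in these libraries, against 0.0827 to 1.85 in the other nontumor ones. Afp was at 2.417 in KD nontumor 2, below the other KD nontumor libraries (2.844 to 3.355). In ND nontumor 4 it was at 1.815, against 0.492 to 0.977 in the other ND nontumor libraries. Without KD nontumor 2 the number of replication genes that passed on KD was 15, and without ND nontumor 4 the number on ND was 8. The part of the cell makeup in the replication gene results was not tested.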

How the data were processed

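Polyadenylated RNA from 16 liver samples was sequenced. Per the submitters' processing notes the authors used FastQC, HISAT2, SAMtools and featureCounts on mm10; versions, annotation, strand setting and the step to TPM are not given in the sources used here. The authors deposited TPM for 20601 genes in 16 columns. Nontumor columns carry P where titles carry N and were matched by diet letters and number. All 20601 genes were solved to whole reads within 0.001 reads. The read steps of 37 of 37 genes equalled their exon lengths in GENCODE M21 (GRCm38), from which overlaps were taken. No 2 libraries of a group were copies (read counts differed with a chi-square of at least 11.59 times its degrees of freedom).

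Each library's TPM was divided by a median-of-ratios factor, for which the 12119 genes with no 0 were used, and log2(value + 1) was fitted with limma 3.58.1 (R 4.3.3; lmFit, eBayes with trend), 4 group means, no block, Benjamini-Hochberg over 13432 genes. Scripts were tested on simulated data. Members, lists and tests were chosen with earlier results of these data known. Values per library are given for genes that passed without overlap (at most 8 per comparison, by adjusted p) or passed on both diets. Of the other pathway list at most 4 per comparison and direction were named, by adjusted p, some with their value on the other diet. Cdkn1a, Cdkn1c and Cdkn2c were named beyond that rule, as further kinase inhibitors. Alternatives were deposited TPM, a common sum, a pseudocount of 0.1, no filter, the compared groups alone, sample weights, replicate blocks, voom, a log2 fold change of at least 1 and each library left out. Whether equal replicate numbers mark samples of 1 mouse is not known. Results were drawn with Python 3.11.15 and matplotlib 3.10.9.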

Additional observations from a re-analysis of the deposited data

Results flagged for a closer look

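In 132 groups of 4 libraries (33 genes in 4 groups), 3 held a library whose gap to the nearest other, as a share of the group's range, was above Dixon's 95% critical value. Chance flags about 1 in 20 groups. Ccne1 was at 39.8 in KD tumor 3, against 11.2 to 13.2 in the other KD tumors. Mcm6 was at 9.36 in the same library, against 4.38 to 5.13. Chaf1b was at 2.12 in KD nontumor 2, against 0.808 to 0.946 in the other KD nontumor libraries. Without KD tumor 3, Ccne1 and Mcm6 still passed for tumor against nontumor liver on KD.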

How the results depend on the processing

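For tumor against nontumor liver on ND, 9 genes passed as reported, and 3 did on deposited TPM, 14 with the listed genes scaled to a common sum, 5 without the filter, 5 with the compared groups alone and 3 with a log2 fold change of at least 1. With the replicate number as a fixed block 5 passed on ND and as a random block 8; on KD 13 passed with either. Same-numbered tumor and nontumor libraries correlated at -0.11 to 0.14 on ND and -0.05 to 0.16 on KD in their deviations from the group means. Whether equal numbers mark 1 mouse cannot be told from this, since tumor and nontumor liver of 1 mouse need not deviate together. On KD 13 passed as reported, 4 on deposited TPM, 7 with a common sum and 7 with a log2 fold change of at least 1. The added alternative of deposited TPM without ND nontumor 4, chosen after seeing the data, gave 2 on ND and 7 on KD. Leaving out single libraries gave 5 to 9 on ND and 8 to 15 on KD. For the diets in tumor 3 passed, 0 on deposited TPM, and 2 to 3 with single libraries left out. For the diets in nontumor liver and the interaction 0 passed in every alternative run. Of the 25 changes of single genes that passed, 6 passed in every alternative, 14 with each library left out, and 0 changed sign. Among those that had not passed, Pcna on ND turned from -0.11 to 0.40 on deposited TPM and 0.13 with a common sum, where the medians of all tested genes were 0.42 and 0.21, so Pcna was still below them. With single libraries left out it ranged from -0.27 to 0.016 (without ND nontumor 2). Msh6 on KD, at -0.07, ranged from -0.17 to 0.000699 (without KD tumor 2). The cause of these changes was not tested. The lowest depth, 1233 reads on the 37 genes in ND nontumor 4, limits what can be seen in the low members.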
